A study of Mus musculus with 6 samples.

Results

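Actin, the thymosins that hold it as monomer, and the proteins that nucleate, cap, cut and bundle its filaments were compared between 3 arrays of spermatogonial stem cell preparations and 3 arrays of total testicular cells. The 10 genes were Actb, Actg1, Tmsb4x, Tmsb10, Pfn1, Arpc1b, Lcp1, Capg, Cfl1 and Coro1a. They were chosen by name, with earlier results of these data known. Every probe set annotated to them was taken, 23 of the 22690 on the mouse expression array. Of the 23, 18 were annotated to 1 member gene alone and covered 9 of the 10 genes. The 2 probe sets of Arpc1b were also annotated to the pseudogene Gm5637 and are given apart. The remaining 3 were the array's own beta-actin control probe sets, which were not part of the test.

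All 6 RNA samples came from Stra8-CD4HAglo mice, in which a shortened Stra8 promoter (Stra8 is a germ cell gene) drives a surface marker with domains of human CD4. Cells carrying the marker were taken from the testes with magnetic beads, 50 males going into each stem cell preparation, and no age was given. The control arrays are titled total testicular cells, while their source text names CD4-negative cells of the same mice, so whether they hold the unsorted or the unbound cells is not settled by the labels. Nothing in the labels says that the 3 replicates of a group came from separate animals, so p-values measure the spread between these samples. On the stem cell arrays 0 of 11 spermatogonial markers differed past the threshold (list median −0.02 on the log2 scale). At an unadjusted limma p under 0.05, 1 was higher and 1 lower. The higher was Stra8 (1.01, adjusted p = 0.0832), without overlap between the groups, and the lower Zbtb16 (−0.43, adjusted p = 0.178), with overlap. Of the 11, 8 had total testicular means less than 2 log2 units above background (2.15, from bacterial control probe sets), which limits what they can show. Of 17 macrophage markers, 14 were higher past the threshold, beside 1.63% of all genes. Of these 17, 11 had total testicular means less than 2 log2 units above background or below it.

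Actin cycles between free monomers and filaments. Thymosin beta 4 and beta 10 bind monomers and keep them out of filaments, profilin hands monomers to growing ends, the Arp2/3 complex starts branches, capping proteins close ends, plastins bundle filaments, and cofilin and coronins take old filaments apart. Beta-actin and gamma-actin are the cytoplasmic actins of nearly all cells, whereas the leukocyte plastin encoded by Lcp1 and the coronin encoded by Coro1a are best known from blood cells and macrophages. In the testis, actin bundles lie at the junctions between Sertoli cells and spermatids and beside the developing acrosome.

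RefSeq start site windows (GRCm38.p6, 250 bases before to 50 bases after a start) were found for 9 of the 10 genes, 13 windows in all. Stretches of 100 bases are shown for the 2 genes that passed the test, Lcp1 and Tmsb4x, for the paralog Tmsb10, which lay lower, and for Actg1. Capitals mark matches on either strand to GGAAGT, a core of ETS factor sites, the family of PU.1, or to the CArG box, the site of serum response factor that is known from actin promoters.
Lcp1 at chr14:75130923-75131022, plus strand: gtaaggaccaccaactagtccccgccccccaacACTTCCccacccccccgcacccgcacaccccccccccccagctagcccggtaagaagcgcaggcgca
Tmsb4x at chrX:167209219-167209318, minus strand: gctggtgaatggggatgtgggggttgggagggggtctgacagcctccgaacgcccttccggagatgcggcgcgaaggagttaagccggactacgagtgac
Tmsb10 at chr6:72958749-72958848, minus strand: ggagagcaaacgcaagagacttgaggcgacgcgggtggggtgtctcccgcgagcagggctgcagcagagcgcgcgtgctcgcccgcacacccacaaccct
Actg1 at chr11:120348496-120348595, minus strand: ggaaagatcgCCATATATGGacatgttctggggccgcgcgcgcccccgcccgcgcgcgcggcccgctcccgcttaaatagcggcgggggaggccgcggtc
The Lcp1 stretch runs from −200 to −101 relative to the start and the other 3 from −100 to −1. The Lcp1 match lies at −167 to −162, and the CArG box of Actg1 at −90 to −81. GGAAGT was found in 5 of the 13 windows, 1 each of Lcp1, Capg, Cfl1, Pfn1 and Arpc1b, and 23.8% of all 32851 windows hold it. GAGGAA, a core of PU.1 sites that shares 4 letters with GGAAGT where they overlap as in Arpc1b, was found in 1 of the 13, of Arpc1b, and in 28.3% of all windows. The CArG box was found in 1 of the 13, of Actg1, and in 1.63% of all windows. These matches are descriptions of letters in these windows. Actb was not analysed here for its start site.

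Lcp1 and Tmsb4x were the 2 of 9 member genes that rose in the stem cell arrays, and 0 fell in the limma test. At an unadjusted p under 0.05, 7 were higher and 1 was lower, beside 11.8% and 13.1% of all genes. The level of a gene was taken from its brightest probe set, the difference is stem cell minus total testicular cell arrays in deposited log2 values, and the threshold was a limma p of 0.05 after Benjamini-Hochberg adjustment over 22626 probe sets. At this threshold 1.63% of 12393 genes were higher and 0.137% were lower. That balance of directions turned on 1 array: without stem cell replicate 2, 414 genes were higher and 527 lower, against 202 and 17 with all arrays. By probe set, 3 of the 18 rose, against 1.4% of all probe sets, and they were both probe sets of Lcp1 and the probe set of Tmsb4x. Without overlap between the groups, 7 of the 9 genes lay above and 1 below, beside 13.8% and 19.2% of all genes. Because the members were chosen with earlier results of these data known, these shares are no test of the members against all genes. The median of the 9 differences was 0.70, and that of all genes −0.05. In these samples a larger share of cells that express a gene and more RNA of it per cell cannot be told apart.

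Lcp1 encodes L-plastin, which bundles actin filaments in leukocytes. Its brighter probe set read 2.43, 2.69 and 2.21 in replicates 1, 2 and 3 of the total testicular cells, and 7.43, 5.47 and 5.37 in those of the stem cell preparations. The total testicular values lay near background (2.15, the level that 95% of bacterial control probe sets do not exceed), and all 3 stem cell values were far above them, with replicate 1 the highest. Lcp1 thus rose 12.5-fold, by 3.65 ± 0.48 (SE, 3 arrays a group; adjusted p = 0.0114 by limma). The other probe set of Lcp1 differed by 2.13 ± 0.43, or 4.36-fold (adjusted p = 0.0495). The brighter one was so only through its stem cell values, since the total testicular means were 2.44 on it and 2.45 on the other. The size of the Lcp1 difference therefore depends on the choice of probe set. Within fluidics rounds, the batches of arrays washed together, the brighter probe set differed by 5.11 in round 1 and 2.78 in round 3. Without stem cell replicate 1 the Lcp1 difference was 2.97 (adjusted p = 0.000242). Without total testicular cell replicate 1, 2 or 3 the adjusted p of Lcp1 was 0.0793, 0.0504 and 0.0764, with differences of 3.64, 3.77 and 3.53.

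Tmsb4x and Tmsb10, which encode the closely related monomer-binding peptides thymosin beta 4 and beta 10, lay on opposite sides of 0. Tmsb4x read 8.66, 9.14 and 8.83 in total testicular cells against 11.63, 10.54 and 10.42 in stem cell preparations, so the groups did not overlap and replicate 1 was again the highest. The difference was 1.99 ± 0.29 (SE, adjusted p = 0.0177), or 3.97-fold, with 2.89 within round 1 and 1.40 within round 3, the rounds that held both groups. Without stem cell replicate 1 it was 1.60 (adjusted p = 0.000951). Without total testicular cell replicate 1, 2 or 3 the Tmsb4x adjusted p was 0.125, 0.0573 and 0.108, with differences of 1.88, 2.12 and 1.96.

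Tmsb10 was among the brightest signals on every array. Its brightest probe set, which like those of Cfl1 and Gsn is of a kind with probes that can match other transcripts, read 12.49, 12.52 and 12.50 in total testicular cells, above all 3 stem cell values of 11.83, 12.27 and 12.11. The Tmsb10 difference was −0.43 ± 0.11 (SE, adjusted p = 0.0799), and it did not pass. Its other 2 bright probe sets, which are of that kind too, gave −0.31 and −0.45, without overlap between the groups. The 2 remaining ones were at or near background and gave 0.00 and −0.11. No bright probe set of Tmsb10 is thus free of possible matches to other transcripts. Without stem cell replicate 2 the Tmsb10 difference passed (−0.53, adjusted p = 0.0353), as it did with the fluidics round as a block (−0.48, adjusted p = 0.0330). Stem cell replicate 3 was alone in round 2, so a block on round takes it out of the comparison of groups.

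**Figure D1:**
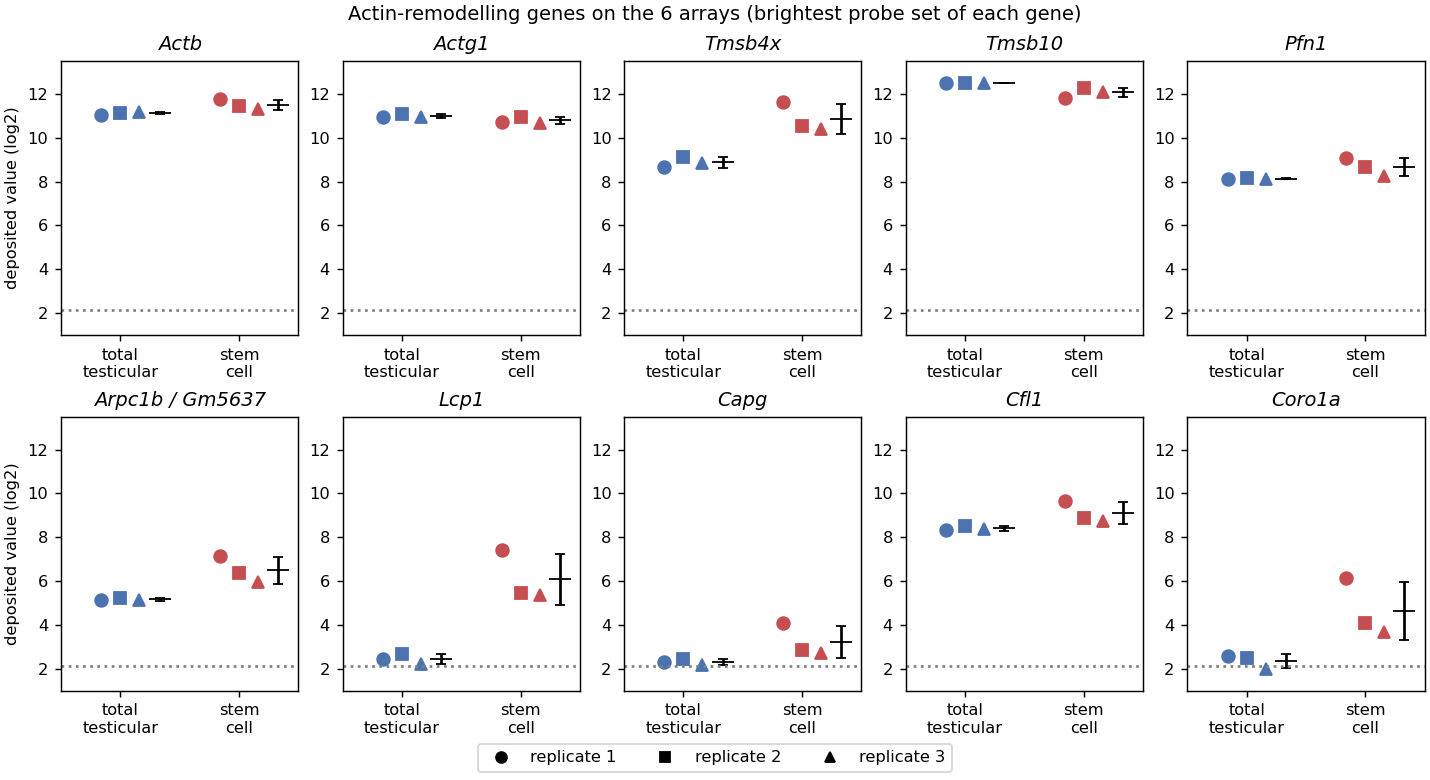
Deposited log2 values of the brightest probe set of each of the 10 genes on the 6 arrays (vertical axes, equal in all panels), by group (horizontal axes). Symbols are replicates, the black bar is the mean with its SD (n = 3), and the dotted line is the background of 2.15. Lcp1, Capg and Coro1a start near background on the total testicular cell arrays, and Tmsb10 lies lower on all 3 stem cell arrays.

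Beta-actin was higher on all 3 stem cell arrays by each of its 5 probe sets, but neither of the 2 that were tested passed. The brighter probe set of Actb read 11.06, 11.13 and 11.16 in total testicular cells against 11.77, 11.45 and 11.32 in stem cell preparations. Its difference was 0.40 ± 0.12 (SE, adjusted p = 0.110, 95% interval 0.12 to 0.67), or 1.32-fold, and the dimmer probe set gave 0.45 (adjusted p = 0.115). The arrays of round 1 gave 0.66 and those of round 3 gave 0.32. A fit blocked on fluidics round put Actb past the threshold (0.51, adjusted p = 0.0335), and leaving out stem cell replicate 3, which that block also sets aside, gave 0.49 (adjusted p = 0.0412). With arrays centred on their hybridization controls Actb differed by 0.23 (adjusted p = 0.690). That centring moved the median difference of all genes from −0.05 to −0.22, and centring on array medians moved it to −0.16.

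The array carries control probe sets at the 3′ end, the middle and the 5′ end of the beta-actin transcript. They differed by 0.50, 0.57 and 0.36, with all 3 stem cell values above all 3 others at each position. The 3′ control read 10.85, 10.95 and 10.87 against 11.67, 11.30 and 11.19, and the 5′ control 10.53, 10.50 and 10.62 against 11.09, 10.90 and 10.74. The 3′ value minus the 5′ value, a measure of how complete the labelled RNA is, was 0.32, 0.45 and 0.24 in total testicular cells against 0.58, 0.41 and 0.45 in stem cell preparations. The groups overlapped in it, and their means differed by 0.14 (exact permutation p = 0.30, two-sided, where 3 against 3 cannot go below 0.10). For Gapdh, a glycolytic enzyme with the same kind of controls, the 3′ minus 5′ value averaged −0.11 and −0.27 (exact permutation p = 0.40). The Gapdh controls themselves were 1.95-fold higher at the 5′ end, 1.66-fold in the middle and 1.75-fold at the 3′ end, again without overlap.

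Actg1, the gene of gamma-actin, did not share the position of Actb. Its 1 probe set, of the kind that matches related transcripts as well, read 10.97, 11.08 and 10.94 in total testicular cells. The stem cell values were 10.73, 10.96 and 10.69, of which replicate 2 lay within the other group's range. The difference was −0.20 ± 0.11 (SE, adjusted p = 0.277), with a 95% interval from −0.44 to 0.04.

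The remaining monomer handler and the nucleation subunit gave higher stem cell values, again short of the threshold. Pfn1, the gene of profilin 1, read 8.11, 8.18 and 8.13 against 9.07, 8.66 and 8.27. Its difference was 0.52 ± 0.19 (SE, adjusted p = 0.154), which moved past the threshold once stem cell replicate 3 was left out (0.72, adjusted p = 0.0346). The round as a block, which sets the same array aside, gave 0.75 (adjusted p = 0.0408). The brighter probe set shared by Arpc1b, a subunit of the Arp2/3 complex, and the pseudogene Gm5637 read 5.14, 5.23 and 5.14 against 7.16, 6.35 and 5.95. That difference was 1.32 ± 0.28 (SE, adjusted p = 0.0547), and the dimmer probe set gave 0.37 (adjusted p = 0.212), so neither passed. All stem cell values were higher at both, and which of the genes gives the signal was not tested.

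Coro1a, Capg and Cfl1 act where filaments end or are taken apart. Coro1a, the coronin of blood cells, read 2.59, 2.47 and 1.98 in total testicular cells, near background, and 6.15, 4.11 and 3.66 in stem cell preparations. The groups did not overlap, yet the spread of the stem cell values was wide and the difference of 2.29 ± 0.54 (SE, adjusted p = 0.0683) did not pass. A further probe set of Coro1a, the brighter one in total testicular cells (mean 2.51 against 2.35), gave 1.77 (adjusted p = 0.0703). The last one stayed below background on every array. Without stem cell replicate 1 the Coro1a difference was smaller and passed (1.54, adjusted p = 0.0129). It also passed without replicate 3 (2.78, adjusted p = 0.0134) and with the block on round that sets this array aside (2.91, adjusted p = 0.0160). In all, Coro1a passed in 6 of 17 alternatives. Without total testicular cell replicate 1, 2 or 3 its limma adjusted p was 0.236, 0.164 and 0.267.

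Capg encodes a protein that caps filament ends without cutting them and is abundant in macrophages. It read 2.31, 2.45 and 2.19 against 4.08, 2.85 and 2.74, a difference of 0.91 ± 0.32 (SE, adjusted p = 0.141). Stem cell replicate 1 stood apart for Capg, and the other 2 lay closer to the total testicular cells than to it. Cfl1, the gene of the filament-cutting protein cofilin 1, read 8.31, 8.51 and 8.39 against 9.67, 8.86 and 8.77 on its brighter probe set, 0.70 ± 0.22 (SE, adjusted p = 0.123). The dimmer one overlapped between groups and gave 0.20, with an interval from −0.23 to 0.64.

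**Figure D2:**
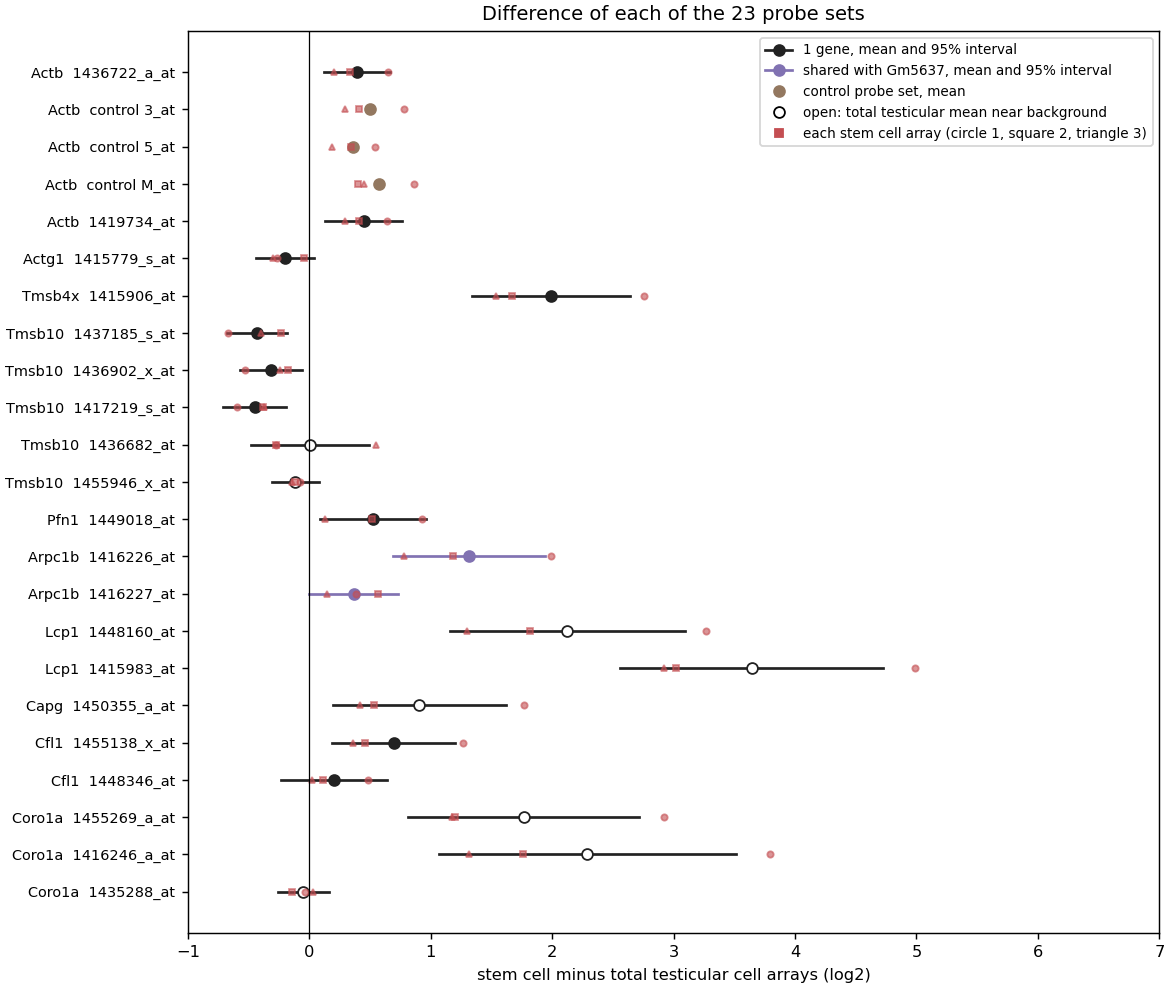
Difference between stem cell and total testicular cell arrays (horizontal axis, log2) for each of the 23 probe sets (vertical axis). Large points are means, lines the 95% limma intervals (none for the controls), small red symbols the 3 stem cell arrays relative to the total testicular mean, and open points probe sets whose total testicular mean lay less than 0.5 above background. The Lcp1 and Tmsb4x intervals lie farthest to the right with Coro1a, and the 5 beta-actin rows between 0.36 and 0.57.

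The stem cell arrays did not contribute equally. Replicate 1 was the highest of all 6 arrays for 7 of the 9 member genes and the lowest for 1, Tmsb10, whereas over all genes it was the highest for 23.4% and the lowest for 35.6%. The median of the members relative to the total testicular mean was 1.27, 0.52 and 0.36 on stem cell arrays 1, 2 and 3. The median of 17 macrophage markers followed the same order, at 5.46, 3.86 and 3.52. Their summed signal lay between 10.07 and 10.21 (log2) on the total testicular cell arrays and between 11.91 and 13.52 on the stem cell arrays. On the total testicular cell arrays that sum was mostly Aif1 (mean 9.72), and the next brightest marker, Lyz2, read 5.36. Aif1 was the 1 macrophage marker that lay lower (−0.11, adjusted p = 0.694), on a probe set of the kind that can match other transcripts. Itgam was the 1 macrophage marker at or below background in the total testicular mean. The Leydig cell medians of 4 genes were 2.93, 1.88 and 0.89. By limma 0 of the 4 Leydig genes passed and all 4 were higher at an unadjusted p under 0.05, none of them at or below background, with summed signals of 7.91 to 9.21 and 9.55 to 11.58. Lists of lymphocytes (7 measured), neutrophils (7), endothelium (7), smooth muscle (6) and red cells (3) had 0 members past the threshold by limma. At an unadjusted p under 0.05 there was 1 lymphocyte gene and 0 in the others, and medians lay between −0.12 and 0.07. In this order, 6, 7, 7, 5 and 2 of these genes had total testicular means less than 2 log2 units above background or below it. That limits what these lists can show. Of 7 spermatid genes 0 passed by limma (median −0.14). Their summed signal was 15.05 to 15.33 on total testicular cell arrays and 15.00 to 15.28 on stem cell arrays. Of 8 meiotic germ cell genes 0 passed (median −0.09), with sums of 12.66 to 12.73 and 12.43 to 12.65. At an unadjusted limma p under 0.05, 1 meiotic gene was higher and 2 were lower, with 0 spermatid genes either way. Of 9 Sertoli cell genes 1 rose, Clu, by 2.02 (adjusted p = 0.0234), and the list median was 0.27. With it, 2 of the 9 were higher at an unadjusted p under 0.05, the other being Inha (1.10, adjusted p = 0.0590), without overlap between the groups. The Clu probe set is also of the kind that can match other transcripts. Of the 9 Sertoli cell genes, 6 had total testicular means less than 2 log2 units above background or below it, which limits this list too. The part of these cells in the differences of actin genes was not tested.

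Set against a related gene on the same array, 5 members were higher relative to it in every stem cell preparation. This within-array difference does not change when all log2 values of an array are shifted by the same amount. Other scalings, such as quantile normalization, can change it. The difference says that the change was unequal, not that the relative stayed the same. Actb minus Actg1 was 0.09, 0.05 and 0.23 in total testicular cells and 1.04, 0.50 and 0.63 in stem cell preparations, 0.60 higher. Tmsb4x minus Tmsb10 was 2.42 higher, with total testicular values of −3.83, −3.38 and −3.67 and stem cell values of −0.20, −1.72 and −1.69. Lcp1 minus Pls3 was 2.89 higher. This pair uses the Lcp1 probe set that was brighter only through its stem cell values. The other Lcp1 probe set by itself differed by 2.13, and both read near background in total testicular cells. Pls3 is the plastin of other cell types and itself read 3.44, 3.63 and 3.63 against 4.85, 3.90 and 4.20 (difference 0.75, adjusted p = 0.126). Cfl1 minus Cfl2, the muscle cofilin, was 0.95 higher, and Pfn1 minus Pfn2 was 0.69 higher. The Cfl1 probe set used here can match other transcripts, as can those of Tmsb10 and Actg1. The dimmer Cfl1 probe set by itself differed by 0.20, with overlap between the groups. Cfl2 (−0.25, adjusted p = 0.313) and Pfn2 (−0.16, adjusted p = 0.404) lay lower and did not pass. In none of the 5 pairs did the groups overlap. The first gene of each pair also lay above without overlap by itself, and the share of other gene pairs without overlap was not computed. Each exact permutation p was 0.10, the smallest this design allows, and 0.10 after adjustment over the 5 pairs.

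**Figure D3:**
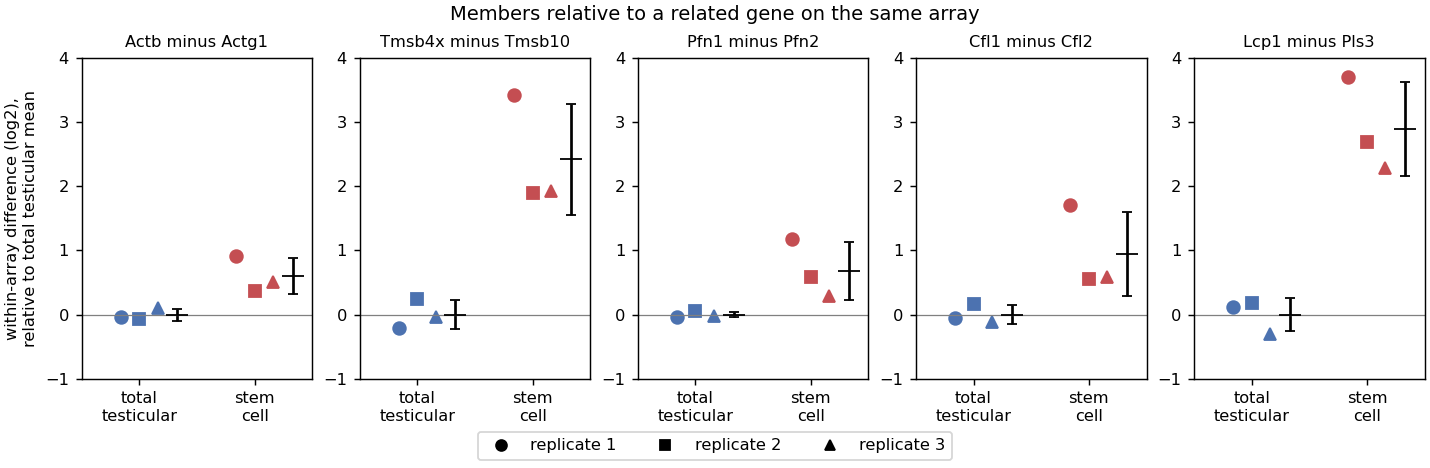
Within-array difference between a member and a related gene (vertical axis, log2, relative to the total testicular mean) on each array, by group (horizontal axis), with the mean and SD (n = 3) in black. All stem cell values lie above all total testicular values in the 5 panels, by 0.60 on average for Actb minus Actg1. For Lcp1 minus Pls3 it is 2.89 on the brighter Lcp1 probe set.

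Further genes of the actin machinery were taken from 8 lists, of whose 134 genes 109 were measured. Of the 109, 2 rose and 1 fell, and 36 lay above and 11 below without overlap, where all genes gave 1.63%, 0.137%, 13.8% and 19.2%. Their median difference was 0.14. The lists too were chosen with earlier results of these data known, so these shares are no test of them against all genes. The 2 that rose were Myh9 and Gsn, and the 1 that fell was Fmn2. When total testicular cell replicate 1, 2 or 3 was left out, 0 of the 109 passed in limma. In the fit to the 6 arrays, 35 were higher and 8 lower at unadjusted p under 0.05, against 11.8% and 13.1% of all genes. The counts without 1 stem cell replicate were 6 higher and 1 lower (replicate 1), 9 and 2 (replicate 2) and 14 and 1 (replicate 3).

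Myh9, the heavy chain of non-muscle myosin IIA that pulls on actin filaments, read 3.14, 3.87 and 3.04 against 7.90, 5.99 and 5.87. The Myh9 difference was 3.24 ± 0.49 (SE, adjusted p = 0.0218), and its other probe sets gave 2.46 (adjusted p = 0.0513), 0.84 and 0.06. The probe set was the brightest through its stem cell values. In total testicular cells the one that gave 2.46 was brighter (mean 3.66 against 3.35), and it did not pass, so the call of Myh9 depends on the choice of probe set.

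Gsn, the gene of the filament-cutting protein gelsolin, read 5.75, 6.29 and 5.82 against 7.19, 6.80 and 6.89 (1.00 ± 0.20 SE, adjusted p = 0.0472). Here the stem cell arrays were nearly level with one another, and total testicular replicate 2 was the highest of its group. Gsn was the 1 of 28 measured severing, capping and turnover genes that rose, with 0 that fell by limma (unadjusted p under 0.05 for 3 lower and 8 higher genes) and a list median of −0.05. Of the 6 Gsn probe sets 3 passed, with differences of 0.93, 1.00 and 1.19, all of the kind that can match other transcripts. Another, similarly bright and not of that kind, gave 0.91 (adjusted p = 0.0520). Fmn2, a formin of oocytes, fell from 2.61, 2.60 and 2.73 to 1.95, 1.70 and 2.08 (−0.73 ± 0.13 SE, adjusted p = 0.0396). The Fmn2 stem cell values lay below background, and its other 2 probe sets gave −0.33 and −0.18 without passing.

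In the remaining 7 lists the genes past the threshold were Myh9 among tropomyosins and myosins and Fmn2 among formins and Ena/VASP genes. Medians were 0.64 for 14 tropomyosins and myosins, 0.37 for 13 nucleation-promoting factors, 0.33 for 6 further Arp2/3 subunits and 0.15 for 25 bundling and linking genes. They were −0.13 for 9 formins and Ena/VASP genes, −0.16 for 5 monomer-binding genes and −0.18 for 9 other actins and testis actin-like genes. In the order of this paragraph, 10, 5, 3, 7, 1, 0 and 1 of these genes had an unadjusted p under 0.05 and a positive difference by limma, and 0, 0, 0, 2, 2, 1 and 0 a negative one. The smooth muscle actin gene Acta2 had a difference of 0.60 (adjusted p = 0.204). Arpc1a, the more widely expressed relative of Arpc1b, differed by −0.30 (adjusted p = 0.288). Capza3, the capping subunit of spermatids, read 9.88, 9.76 and 9.94 against 9.28, 9.46 and 9.88 (−0.32, adjusted p = 0.259). Fscn3, the testis fascin, differed by −0.15 (adjusted p = 0.805).

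**Figure D4:**
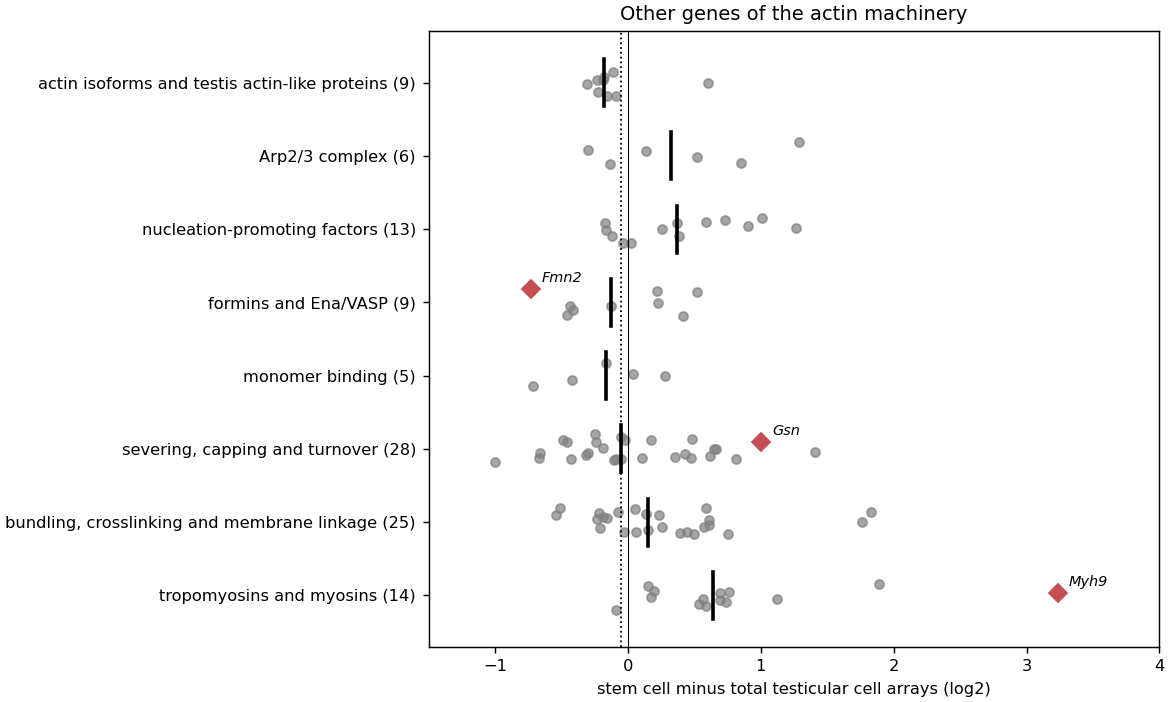
Differences between stem cell and total testicular cell arrays (horizontal axis, log2) of 109 other genes of the actin machinery in 8 lists (vertical axis, number measured in brackets). Red diamonds passed the threshold, grey points did not, black bars are list medians, and the dotted line is the median of all genes, −0.05. The 2 genes that rose, Myh9 and Gsn, lie in different lists.

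Genes with the most similar course over the 6 arrays were sought for 3 members, by the root mean square distance of log2 values taken relative to the total testicular mean. For Lcp1 they were Evi2a, Hpgd and Clec4n, at distances of 0.14, 0.14 and 0.18, with differences of 3.61, 3.55 and 3.82. Evi2a and Clec4n, like Lcp1, had total testicular means near background (2.21 and 2.29). For Tmsb4x they were Cd302, Nek7 and Ahnak, at distances of 0.07, 0.09 and 0.12 and differences of 1.98, 2.05 and 2.07. For Actb the nearest were Romo1, Atp6v0d1 and Plxnb2, at 0.05 each. The 6 arrays are the points of this measure, and they are shared by all genes. Genes near in this measure have similar differences by construction.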

How the data were processed

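Total RNA of 6 samples was labelled with biotin and hybridised to 1 Affymetrix Mouse430A_2 array each. The authors deposited 1 processed value per probe set and array. The deposited values span too small a range for linear intensities and were taken as log2. MAS5 and RMA are listed in the submitters' processing notes without a role or version, and how arrays were normalized is not stated there. Array medians were 3.25 to 3.44, and 79.7% to 84.1% of probe sets per array lay above background (2.15, from 27 bacterial control probe sets). Stem cell arrays correlated with one another at 0.970 to 0.984, the others at 0.992 to 0.995. The number of arrays limits the precision.

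Probe sets were named from GEO's platform annotation, with 0 symbols changed by gene ID. After 64 controls were left out, 22626 were tested with limma 3.58.1 in R 4.3.3 (lmFit, eBayes with an intensity trend, two-sided), stem cell minus total testicular cell arrays, without a filter on dim probe sets. Intervals are 95% limma intervals. A gene is represented by its probe set of highest mean over all arrays of both groups. Named genes are all members, pathway genes past the threshold, fixed paralogs and testis forms, and the 3 nearest genes of 3 members. Gapdh, Clu, Inha, Stra8, Zbtb16, Aif1 and Lyz2 were named after their values were seen. The members and lists were chosen with earlier results of these data known. A further list of pathway genes is not reported here. The procedure was checked on simulated data, where 58.2% of changes of 1 log2 unit were recovered, 94% of 2 and 100% of 4. Of 177 calls there, 9 were false. Smaller changes were not simulated. Fluidics round and module come from the array headers. Replicate numbers were not used to pair the samples in the main fit. Correlations of deviations were −0.01, 0.01 and 0.30 for replicates 1, 2 and 3, which does not settle whether the numbers pair them. Replicate 1 of both groups was in fluidics round 1, and replicate 2 of both in round 3. Alternatives were 3 other scalings, a filter, blocks, other variance settings, array weights, averaged probe sets, a minimum difference of 1 and leaving out each array; the alternatives for paralog differences were chosen after seeing the data.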

Additional observations from a re-analysis of the deposited data

How the results depend on the processing

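Apart from the block on fluidics module, the 9 member differences kept their direction under every alternative run. Without 1 array at a time the number of member genes past the threshold ran from 0 to 5 (2 with all arrays), of member probe sets from 0 to 7 (3), of other actin genes from 0 to 15 (3) and of all genes from 28 to 941 (219). Each of the 3 counts of actin genes was 0 when any total testicular cell array was left out. In the order member genes, member probe sets, other actin genes and all genes, the counts were 4, 6, 11 and 737 with the replicate number as a replicate block, 6, 8, 9 and 767 with the fluidics round as a block, and 4, 6, 9 and 603 with array weights. A block on fluidics module gave 0 for all 4 counts and 0.019 for Actg1, but only stem cell replicate 2 and total testicular replicate 3 share a module, so it sets 1 array against 1 and says nothing about stability. Centring on hybridization controls gave 5 member probe sets, 11 other actin genes and 737 of all genes (516 higher and 221 lower, against 202 and 17). Without the intensity trend 1 other actin gene and 82 of all genes passed, and with averaged probe sets 0 and 100. The cause of these shifts was not tested. The 3′ minus 5′ difference between groups ran from 0.09 to 0.19 for beta-actin and from −0.33 to −0.06 for Gapdh without 1 array at a time. The within-array differences between paralogs kept their sign in all 35 alternatives. Signal limits Lcp1, Coro1a and Capg, whose total testicular means lay less than 0.5 above background.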

Other observations

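Probe sets of 1 gene disagreed for some of the other genes of the actin machinery. Of 55 such genes with more than 1 probe set, 7 had probe sets whose differences lay more than 1 log2 unit apart. Wdr1, a cofactor of cofilin, is an example chosen after its values were seen: its 2 brighter probe sets gave −0.09 and −0.13, while the dimmest, at 3.58 on the total testicular cell arrays, rose by 1.69 (adjusted p = 0.0411). Cotl1, the coactosin-like gene, gave 0.43 to 0.50 on 4 probe sets and 1.65 (adjusted p = 0.0689) on the fifth. Marcks, a membrane-linked actin crosslinker, gave 1.76 (adjusted p = 0.0604) on its brightest probe set, while a dimmer one rose (1.62, adjusted p = 0.0292). Enah, a filament elongation factor, had probe sets from −1.03 to 0.28, and none of them passed.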
